A study of Homo sapiens with 6 samples.

Results

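Matrix metalloproteases and their tissue inhibitors, the TIMPs, were followed in A549 cells, a line derived from a human lung adenocarcinoma. The 10 genes described, MMP1, MMP2, MMP7, MMP14, MMP15, MMP16, MMP24, TIMP1, TIMP2 and TIMP3, were found by symbol among the 60624 genes of the deposited count table, and each symbol matched 1 row. PolyA RNA was sequenced from 3 libraries of RAVER1 knockout cells, made with CRISPR/Cas9, and from 3 libraries of parental cells labelled WT. RAVER1 encodes an RNA-binding cofactor of the splicing regulator PTBP1, and the series title ties it to TGFB signalling, epithelial-mesenchymal transition and miRNA activity. No drug or cytokine treatment is given for either group. All 3 knockout libraries carry the label KO2, and the labels do not say whether KO2 is 1 clone. P-values describe library-to-library spread within these groups, which may be partly technical.

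Matrix metalloproteases (MMPs) are zinc-dependent enzymes that cut collagens, basement membrane proteins and cell surface proteins. They are made as inactive proenzymes. MMP1, MMP2 and MMP7 are secreted, whereas MMP14, MMP15, MMP16 and MMP24 are held in the plasma membrane. TIMPs bind the active enzymes and block them. TIMP2 has a second role, since a complex of MMP14 and TIMP2 at the cell surface holds pro-MMP2 while a free MMP14 molecule cuts it.

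Total counts per library were 31200927 to 39910127 in knockout and 29811747 to 34359060 in parental cells. RAVER1 itself had 110, 112 and 79 counts in the knockout libraries, against 2510, 1996 and 2285 in the parental libraries, or 3.92% of the parental level in CPM (counts scaled to library size). Markers of epithelial cells and A549 summed to 16700 to 18000 CPM in knockout and 21500 to 22100 CPM in parental libraries, and 1 of the 10 was higher and 7 were lower. Of 8 leukocyte and macrophage markers, CD14 was detected, at 4.51 CPM in knockout and 5.49 CPM in parental cells. PTPRC, LYZ, CD68 and CSF1R had 4 counts or fewer per library, and CD3E, MS4A1 and FCGR3A were at 0 counts in every library. The labels give no batch or date, so no within-batch value could be computed.

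The metalloproteases moved in both directions in knockout cells. MMP2 rose 18.0-fold and TIMP2 1.91-fold, while MMP7 fell to 9.39% and MMP24 to 57.8% of the parental level. MMP14, MMP15 and TIMP1 did not pass the test, and MMP1, MMP16 and TIMP3 had too few counts to be tested with the low-count filter. A gene was called with an adjusted p under 0.05 in edgeR's quasi-likelihood test with Benjamini-Hochberg adjustment over all 16652 genes tested. Of the 7 members tested, 2 were higher and 2 lower. Among all tested genes 41.4% were called, 21.3% as higher and 20.0% as lower, so a count of 4 in 7 is not set apart from the background by its number. All 7 had enough counts for the filter in both groups. The libraries of the groups did not overlap in CPM for 4 of the 7, against 50.2% of all tested genes. Because these are bulk libraries, a change in the number of cells that make a transcript and a change in RNA per cell cannot be told apart.

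**Figure D1:**
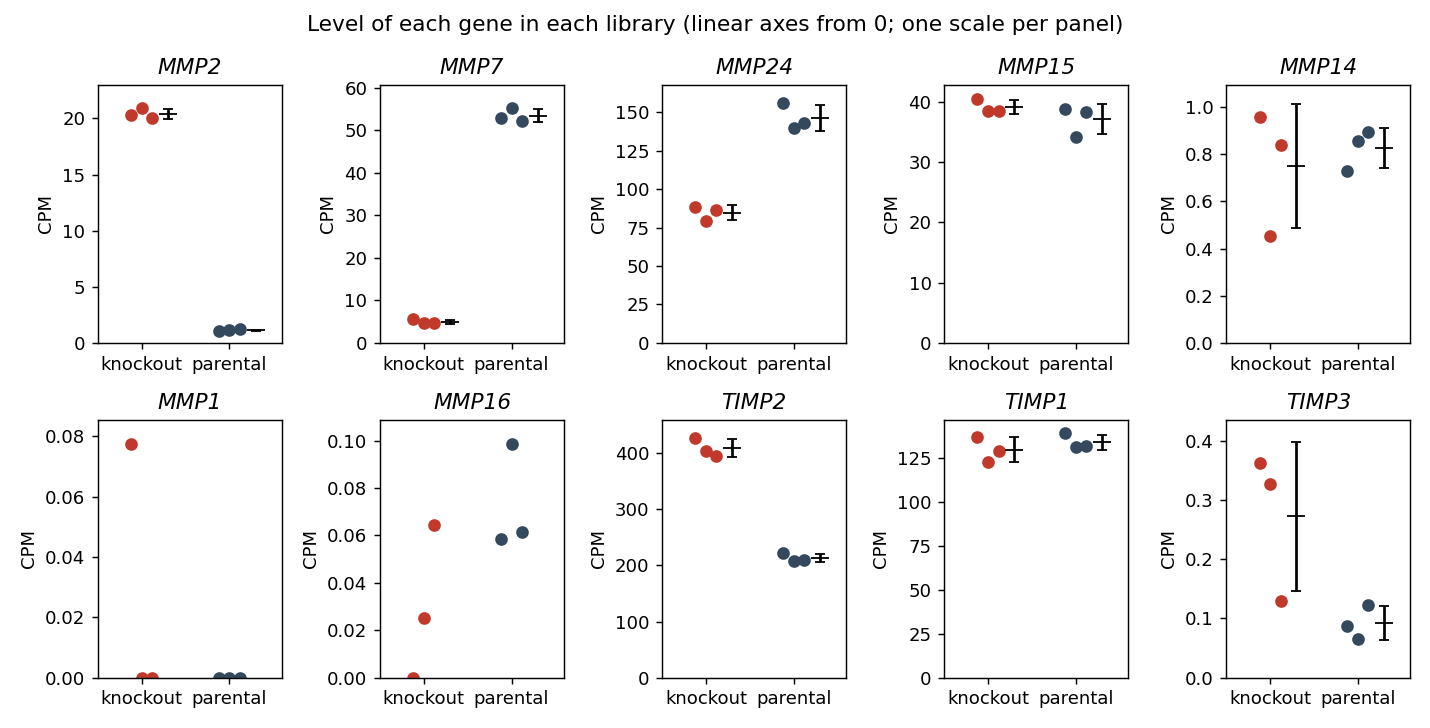
Level of each of the 10 genes in CPM in the 3 RAVER1 knockout libraries (red, left) and the 3 parental libraries (dark, right), with a linear axis from 0 and its own scale in each panel. Points are libraries and bars give mean ± SD, which is not drawn for MMP1 and MMP16, whose counts were 3 or fewer; the groups stand apart for MMP2, MMP7, MMP24 and TIMP2, while TIMP3 in knockout replicate 3 lies close to parental replicate 3.

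MMP2, or gelatinase A, cuts denatured collagen and type IV collagen of basement membranes. MMP2 (ENSG00000087245, hg38 chromosome 16, 55389700 to 55506691, plus strand) had 786, 831 and 620 counts in knockout libraries, against 37, 34 and 39 counts in parental libraries. These are 20.3, 20.9 and 20.0 CPM in knockout replicates 1 to 3 and 1.08, 1.12 and 1.20 CPM in parental replicates 1 to 3. The lowest knockout library was far above the highest parental library, and the libraries of each group lay close together. MMP2 averaged 20.4 ± 0.46 CPM in knockout and 1.13 ± 0.062 CPM in parental cells (SD, n = 3 each). Its log2 fold change was 4.17 (SE 0.11, edgeR adjusted p = 4.62e-17), which ranked 19 from the top among the tested genes.

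MMP7, or matrilysin, is a short metalloprotease without the C-terminal hemopexin domain of most family members and is typical of epithelial cells. MMP7 (ENSG00000137673, chromosome 11, 102520508 to 102530753, minus strand) had 215, 189 and 147 counts in knockout libraries, against 1813, 1678 and 1695 counts in parental libraries. In CPM it stood at 5.56, 4.75 and 4.74 in knockout replicates 1 to 3 and at 52.9, 55.2 and 52.2 in parental replicates 1 to 3. The highest knockout library was far below the lowest parental one. The log2 fold change of MMP7 was -3.41 (SE 0.074, edgeR adjusted p = 5.03e-18), which ranked 70 from the bottom among the tested genes. The 7 lower epithelial and A549 markers moved the same way, and their part in this change was not tested.

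MMP24 (ENSG00000125966, chromosome 20, 35226654 to 35277000, plus strand) encodes MT5-MMP, a membrane-type enzyme best known from the nervous system. It had 3420, 3155 and 2682 counts in knockout libraries, against 5346, 4263 and 4660 counts in parental libraries. Its levels were 88.4, 79.3 and 86.4 CPM in knockout replicates 1 to 3 and 156, 140 and 143 CPM in parental replicates 1 to 3, with no overlap between the groups. The log2 fold change was -0.79 (SE 0.052, edgeR adjusted p = 1.44e-10). Exons of MMP24 share 799 bases with MMP24OS on the opposite strand, which also fell, with 37.3 CPM in knockout and 60.8 CPM in parental cells (log2 fold change -0.71, SE 0.059, edgeR adjusted p = 5.06e-09). The strand setting of the counting is not given in the sources used here, so reads of the shared bases cannot be told apart.

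RefSeq promoter windows (GRCh38.p14, 250 bases before to 50 bases after the annotated start) were matched for 6 of the 10 genes, MMP7, MMP14, MMP15, MMP24, TIMP1 and TIMP3. Those of MMP7 and MMP24 are shown up to the start because both genes fell and their windows differ in the motifs they hold. Capitals mark matches to the AP-1 motif TGANTCA, the TATA motif TATAAA and the GC box GGGCGG on either strand. The MMP7 stretch is chr11:102530748-102530997 on the minus strand, and that of MMP24 is chr20:35226440-35226689 on the plus strand.
MMP7: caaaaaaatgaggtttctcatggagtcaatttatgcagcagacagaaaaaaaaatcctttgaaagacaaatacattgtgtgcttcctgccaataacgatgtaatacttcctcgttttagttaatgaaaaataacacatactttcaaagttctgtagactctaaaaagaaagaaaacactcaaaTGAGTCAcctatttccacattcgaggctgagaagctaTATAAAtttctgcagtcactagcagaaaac
MMP24: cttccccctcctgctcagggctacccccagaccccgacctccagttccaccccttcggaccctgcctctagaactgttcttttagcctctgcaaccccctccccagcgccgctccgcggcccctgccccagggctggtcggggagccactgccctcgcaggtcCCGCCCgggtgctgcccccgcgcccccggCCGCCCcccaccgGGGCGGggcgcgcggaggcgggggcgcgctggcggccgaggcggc

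The MMP7 window held 1 AP-1 match, which begins 67 bases before the start, and 1 TATA match, 30 bases before it. The MMP24 window held 3 GC box matches, beginning 87, 58 and 45 bases before the start, and neither of the other motifs. Among the 6 windows, MMP7 alone held an AP-1 or a TATA match, and MMP7 alone held no GC box. Of 35116 RefSeq promoter windows of the same length, 7.71% held TGANTCA, 11.5% TATAAA and 45.0% GGGCGG. The E-box CAGGTG, searched on both strands, was in 20.6% of them and, among the 6, in that of MMP15 alone, with 2 matches. In the MMP15 window, the GC box that begins 139 bases before the start and the E-box that begins 134 bases before it share 1 base, and no other matches of different motifs overlapped in the 6 windows. A match describes letters in the window and not a bound site.

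MMP14, MMP15 and MMP16 are the other membrane-type enzymes. MMP15 (ENSG00000102996, chromosome 16, 58025566 to 58046901, plus strand), or MT2-MMP, had 40.4, 38.5 and 38.4 CPM in knockout replicates 1 to 3, against 38.7, 34.2 and 38.3 CPM in parental replicates 1 to 3. The groups overlapped and the log2 fold change was 0.076 (SE 0.060, edgeR adjusted p = 0.337). MMP14 (ENSG00000157227, chromosome 14, 22836557 to 22849027, plus strand), or MT1-MMP, the main activator of pro-MMP2, had 37, 18 and 26 counts in knockout libraries, against 25, 26 and 29 counts in parental libraries. MMP14 stood at 0.75 ± 0.26 CPM in knockout and 0.83 ± 0.086 CPM in parental cells (SD, n = 3 each), with overlapping groups. Its log2 fold change was -0.15 (SE 0.27, edgeR adjusted p = 0.703), and 0.13 without knockout replicate 2, so its direction rested on 1 library. MMP16 (ENSG00000156103, chromosome 8, 88032009 to 88328025, minus strand) had 0, 1 and 2 counts in knockout and 2, 3 and 2 counts in parental libraries, at or under the floor of 3 counts per library, and no fold change is given.

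MMP1, the interstitial collagenase, was close to absent. MMP1 (ENSG00000196611, chromosome 11, 102789920 to 102798160, minus strand) had 3, 0 and 0 counts in knockout libraries and 0 in each of the 3 parental libraries. A count of 0 allows a level of up to 0.0754 to 0.0966 CPM in knockout replicates 2 and 3 and up to 0.0875 to 0.0987 CPM in the parental libraries, from counting error only. No difference in MMP1 was detectable at this depth.

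Of the inhibitors, TIMP2 rose and TIMP1 did not pass the test. TIMP2 (ENSG00000035862, chromosome 17, 78852977 to 78925387, minus strand) had 16500, 16069 and 12295 counts in knockout libraries, against 7625, 6333 and 6809 counts in parental libraries. It stood at 427, 404 and 396 CPM in knockout replicates 1 to 3 and at 222, 208 and 210 CPM in parental replicates 1 to 3, with no overlap. The log2 fold change of TIMP2 was 0.94 (SE 0.044, edgeR adjusted p = 5.88e-13). Exons of TIMP2 share 367 bases with AC022966.1 on the opposite strand and 198 bases with CEP295NL on the same strand, both with 28 counts or fewer per library.

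TIMP1 (ENSG00000102265, chromosome X, 47582313 to 47586789, plus strand) inhibits most secreted metalloproteases and blocks MMP14 poorly. It had 137, 123 and 129 CPM in knockout replicates 1 to 3, against 139, 131 and 132 CPM in parental replicates 1 to 3. The groups overlapped, and the log2 fold change was -0.045 (SE 0.048, edgeR adjusted p = 0.490). TIMP1 lies within the gene body of SYN1 on the opposite strand and shares no exon bases with it.

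TIMP3 (ENSG00000100234, chromosome 22, 32801701 to 32863043, plus strand), which binds to the extracellular matrix, had 14, 13 and 4 counts in knockout libraries, against 3, 2 and 4 counts in parental libraries. Knockout replicates 1 and 2 were high, while replicate 3, at 0.129 CPM, was next to parental replicate 3 at 0.123 CPM. In the edgeR fit without a low-count filter its log2 fold change was 1.56 (SE 0.56, adjusted p = 0.0261). TIMP3 also entered 4 of the 6 fits that left out a library. All 4 kept knockout replicates 1 and 2, through which it passed the filter. The fits without either of these libraries did not test it, so the 4 fits are no check of the call. The call was lost without parental replicate 1 (1.53, edgeR adjusted p = 0.0646) or parental replicate 2 (1.40, 0.0821), and kept without parental replicate 3 (1.81, 0.0373) or knockout replicate 3 (1.86, 0.00813).

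**Figure D2:**
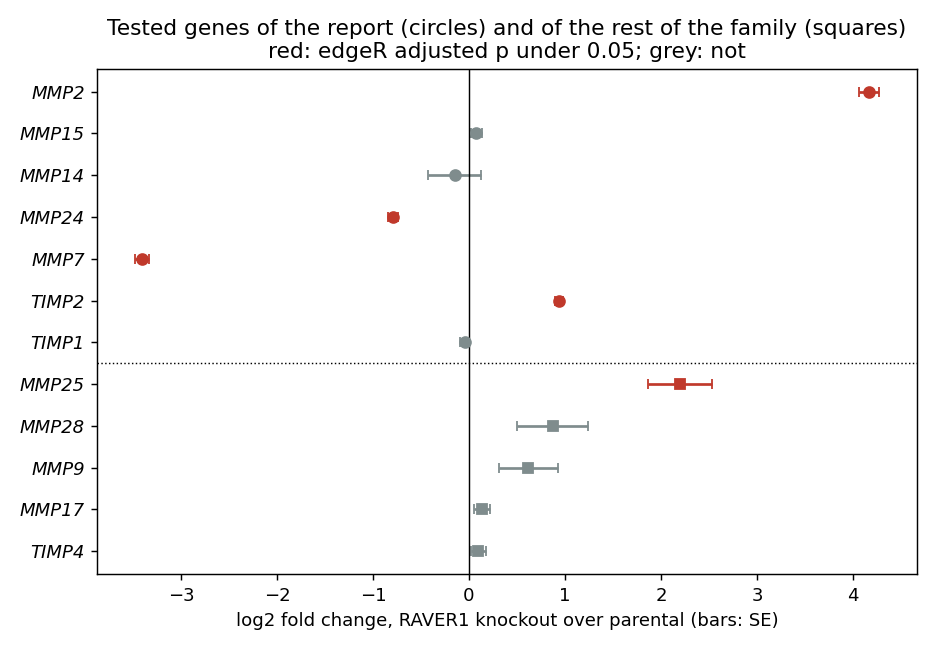
Log2 fold change of RAVER1 knockout over parental cells on the x axis, with bars of 1 SE, for the 7 tested genes of the report (circles, above the dotted line) and 5 other tested genes of the family (squares, below it). Red marks an edgeR adjusted p under 0.05; MMP2 lies at 4.17, MMP7 at -3.41, MMP24 at -0.79, TIMP2 at 0.94 and MMP25 at 2.20.

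Levels of different genes were compared per length, as CPM divided by the gene length of the deposited table in kilobases. TIMP1 was highest in both groups, at 89.8 ± 4.96 CPM per kilobase in knockout and 92.7 ± 3.07 in parental cells (SD, n = 3 each). TIMP2 was the second, at 72.6 ± 2.83 CPM per kilobase in knockout and 37.9 ± 1.38 in parental cells. MMP24 came next in both groups, at 19.4 ± 1.1 CPM per kilobase in knockout and 33.5 ± 1.9 in parental cells. Among the 7 metalloproteases, MMP24 had the highest level per length in both groups with the deposited lengths.

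The order below MMP24 differed between the groups. In knockout cells MMP15 (9.24 CPM per kilobase), MMP2 (4.33), MMP7 (2.16) and MMP14 (0.17) followed. In parental cells the sequence was MMP7 (23.0 CPM per kilobase), MMP15 (8.76), MMP2 (0.24) and MMP14 (0.19). No neighbours in either order, from TIMP1 down to MMP14, overlapped between libraries. With the longest annotated transcript as the length, MMP7 stood above MMP24 in parental cells, at 40.4 against 33.2 CPM per kilobase, so that step depended on the length used.

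**Figure D3:**
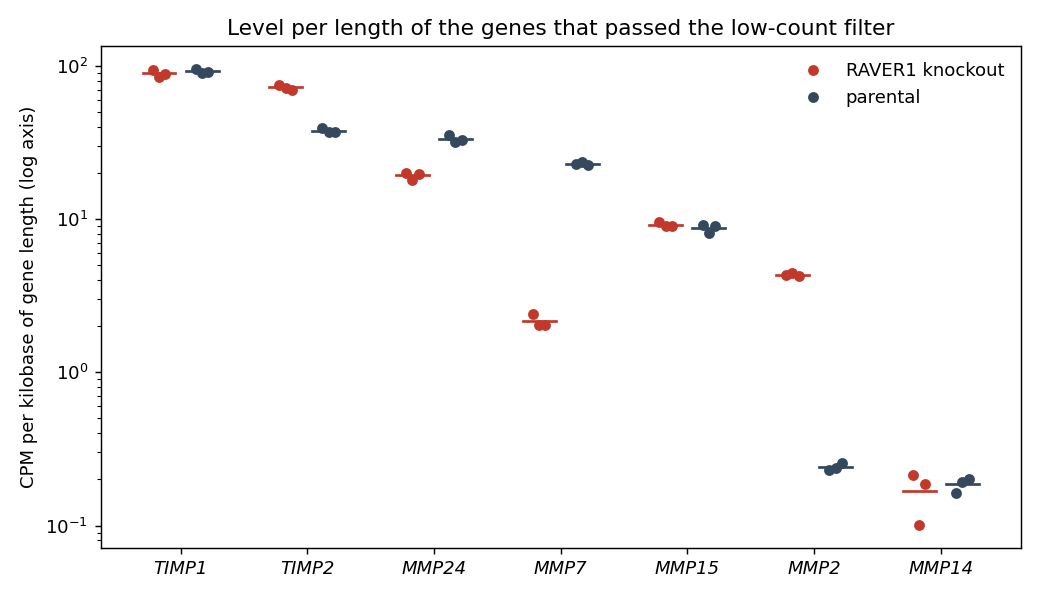
CPM per kilobase of deposited gene length, on a log axis, for the 7 genes that passed the low-count filter, with RAVER1 knockout libraries in red left of parental libraries in dark. Points are libraries and lines are means; MMP2 stands at 4.33 in knockout and 0.24 in parental cells, and MMP7 at 2.16 in knockout and 23.0 in parental cells.

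Summed per length, the 7 metalloproteases stood at 36.7, 33.8 and 35.3 CPM per kilobase in knockout replicates 1 to 3, against 68.0, 64.4 and 64.8 in parental replicates 1 to 3. The 3 TIMPs summed to 171, 157 and 160 CPM per kilobase in knockout replicates 1 to 3, against 136, 127 and 129 in parental replicates 1 to 3. The metalloprotease sum was lower and the TIMP sum higher in every knockout library than in any parental one. The ratio of the sums was 0.215, 0.215 and 0.221 in knockout and 0.501, 0.505 and 0.503 in parental replicates 1 to 3. These sums are descriptions of transcript levels and were not tested.

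The makeup of the metalloprotease sum differed as well. MMP24 held 54.9 ± 1.18% of it in knockout and 50.9 ± 1.35% in parental cells (SD, n = 3 each). MMP7 held 6.12 ± 0.38% in knockout and 35.1 ± 1.75% in parental cells. MMP15 held 26.2 ± 0.62% in knockout and 13.3 ± 0.73% in parental cells, although its own level was not called. MMP2 held 12.3 ± 0.73% in knockout and 0.37 ± 0.028% in parental cells, and it stayed behind MMP24 and MMP15 in knockout cells. Of the TIMP sum, TIMP2 made up 44.7 ± 0.87% in knockout and 29.02 ± 0.10% in parental cells.

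**Figure D4:**
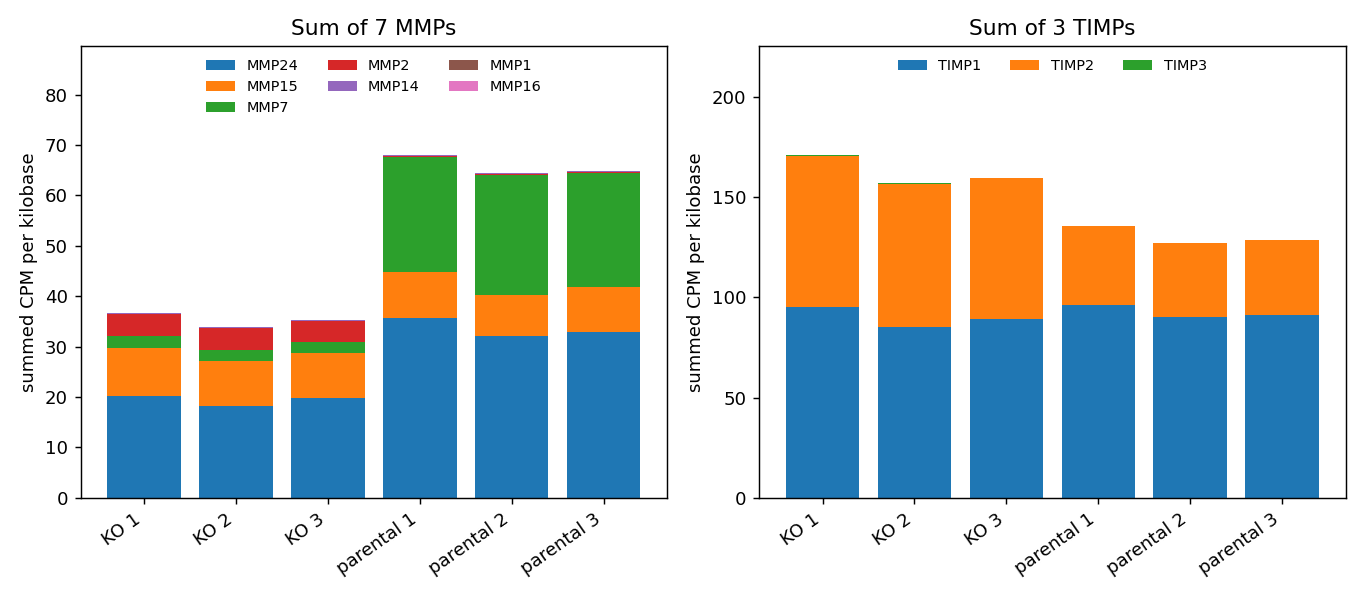
Summed CPM per kilobase of the 7 metalloproteases (left) and the 3 TIMPs (right) in each library, with RAVER1 knockout libraries (KO 1 to 3) left of parental ones and colours for genes. The metalloprotease stack ranges from 33.8 to 36.7 in knockout and from 64.4 to 68.0 in parental libraries, and the TIMP stack from 157 to 171 in knockout and from 127 to 136 in parental libraries.

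For the 3 genes of the pro-MMP2 activation complex, levels per length were set against each other within each library. The ratio of MMP2 to TIMP2 per kilobase was 0.057, 0.0619 and 0.0604 in knockout replicates 1 to 3, against 0.00581, 0.00643 and 0.00686 in parental replicates 1 to 3, a ratio of means of 9.39. The ratio of MMP14 to TIMP2 was 0.00283, 0.00142 and 0.00267 in knockout replicates 1 to 3, against 0.00414, 0.00519 and 0.00538 in parental replicates 1 to 3. TIMP2 transcripts thus exceeded those of MMP2 and MMP14 in all 6 libraries. The activity of the enzymes was not measured.

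Among 16 other metalloprotease genes and TIMP4, 5 passed the low-count filter, 1 was higher and 0 were lower in edgeR. At an unadjusted p under 0.05, 0 of the 5 were lower in edgeR, and DESeq2, limma-voom and edgeR without the filter also called 0 lower. Nothing is read from that direction, because MMP9, MMP25 and MMP28 reached the level of the filter in all 3 knockout libraries but not in all 3 parental ones. MMP25, or MT6-MMP, which is anchored to the membrane by a lipid, had 28, 43 and 24 counts in knockout libraries, against 6, 6 and 6 counts in parental libraries. MMP25 rose with a log2 fold change of 2.20 (SE 0.33, edgeR adjusted p = 1.78e-05), and no knockout library was near a parental one.

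MMP17, or MT4-MMP, had 16.1 CPM in knockout and 14.6 CPM in parental cells, and TIMP4 had 14.0 CPM in knockout and 13.2 CPM in parental cells. Neither was called (log2 fold changes 0.14 and 0.096, edgeR adjusted p 0.183 and 0.352). MMP9, or gelatinase B, had 23, 29 and 21 counts in knockout and 14, 19 and 9 counts in parental libraries (0.62, SE 0.31, edgeR adjusted p = 0.115), and passed without parental replicate 2 (0.95, 0.0398). MMP28 had 18, 22 and 10 counts in knockout and 10, 9 and 5 counts in parental libraries (0.87, SE 0.37, edgeR adjusted p = 0.0672), and passed without knockout replicate 3 (1.04, 0.0465). MMP10, MMP11, MMP13, MMP19, MMP20, MMP21 and MMP23B had between 0 and 15 counts per library and were below the filter. Among them MMP11 had 3, 1 and 3 counts in knockout and 5, 2 and 4 counts in parental libraries, and MMP21 had 1, 0 and 0 counts in knockout and 2, 1 and 3 counts in parental libraries. MMP3, MMP8, MMP12, MMP26 and MMP27 had 0 counts in every library. On chromosome 11, where MMP7 lies in a cluster of metalloprotease genes, MMP7 was thus the one member of the family with more than 6 counts in any library.

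Tested genes beside the members moved both ways. Neighbours were tested genes whose lowest coordinate, whatever the strand, lies within 250000 bases of a member's lowest coordinate. MMP1, MMP16 and TIMP3 had 0 such neighbours, while MMP14 had 16. Of the 53 neighbours of the other members, 13 were higher and 13 lower, with a median log2 fold change of -0.022, against 0.0019 for all tested genes. Among all tested genes 21.3% were called higher and 20.0% lower. The single tested neighbour of MMP2, LPCAT2, begins at base 55508998, just past the end of MMP2 at 55506691, and rose as well. LPCAT2 had 5.07 CPM in knockout and 0.44 CPM in parental cells (log2 fold change 3.50, SE 0.17, edgeR adjusted p = 1.47e-12). Of the 3 tested neighbours of MMP7, the apoptosis inhibitor gene BIRC3 rose (1.06, SE 0.11, edgeR adjusted p = 3.73e-07) and the others were not called. SLC7A7, an amino acid transporter gene beside MMP14, fell (-1.32, SE 0.093, edgeR adjusted p = 4.07e-10). The chromosomes that carry the 10 genes had median log2 fold changes of -0.045 to 0.10.

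Genes for activators, inhibitors and surface partners of metalloproteases moved both ways. Of 30 listed, 25 were tested, 9 were higher and 8 lower, with a median log2 fold change of -0.027. That is 68% called, against 41.4% of all tested genes, in a list chosen with earlier results known. ST14, among the lower ones, reached the level of the filter in parental libraries only. PCSK5, not called, reached it in all 3 knockout libraries but not in all 3 parental ones. The integrin ITGB3, which pairs with ITGAV into a receptor that can dock MMP2, stood at 13.2 CPM in knockout and 0.87 CPM in parental cells (log2 fold change 3.91, edgeR adjusted p = 3.71e-15), and ITGAV, on chromosome 2, rose by 1.06. The serine protease inhibitor gene SERPINE2, on chromosome 2, rose by 1.55 on the log2 scale, and the proteoglycan gene SPOCK1 by 0.71. The proprotein convertase genes PCSK6 (-0.59) and FURIN (-0.32) fell, and furin is known to cut the propeptide of membrane-type metalloproteases. The urokinase gene PLAU (-0.29) and the hyaluronan receptor CD44 (-0.38), a surface anchor of metalloproteases, fell too.

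RECK, a membrane-anchored metalloprotease inhibitor, stood at 8.06 CPM in knockout and 7.11 CPM in parental cells and was not called (0.18, SE 0.094, edgeR adjusted p = 0.130). BSG, the inducer of metalloproteases called EMMPRIN, stood at 818 CPM in knockout and 857 CPM in parental cells (-0.067, SE 0.045, edgeR adjusted p = 0.257). It passed without knockout replicate 1 (-0.11, 0.0186). The choice of ITGAV, FURIN, PLAU, CD44, RECK and BSG was made with their values in view.

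Of 16 genes of invadopodia and of MMP14 traffic, all were tested, 2 were higher and 4 lower, with a median log2 fold change of 0.016. That is 37.5% called, near the 41.4% of all tested genes. The counts of higher and lower genes were 4 and 3 without knockout replicate 1 and 3 and 2 without parental replicate 2. They were 2 and 2 without knockout replicate 3 or parental replicate 3. The scaffold gene SH3PXD2B (0.32) and the endosomal GTPase gene RAB7A (0.21) rose, and MARCKS (-0.61), CTTNBP2 (-1.23) and the exocyst gene EXOC4 (-0.12) fell. EXOC4 lost its call without the low-count filter (-0.12, edgeR adjusted p = 0.094), without knockout replicate 2 (-0.12, edgeR adjusted p = 0.0794) or 3 (-0.11, 0.169) and without parental replicate 2 (-0.097, 0.163) or 3 (-0.13, 0.0947).

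Of 30 transcription factors known to act on metalloprotease genes, 29 were tested, 13 were higher and 6 lower, with a median log2 fold change of 0.22. That is 65.5% called, against 41.4% of all tested genes, in a list chosen with earlier results known. SNAI1 (2.72), SNAI2 (2.02), RUNX2 (1.82), FOSL2 (0.90, on chromosome 2) and ETS2 (0.54) rose with the smallest adjusted p-values, all 1.82e-09 or less in edgeR. The 7 subunits of AP-1, other than FOSL2 named after their values were seen, moved in different directions or were not called. FOSL1 stood at 62.4 CPM in knockout and 26.4 CPM in parental cells (1.24, edgeR adjusted p = 2.01e-09) and JUNB at 92.5 CPM in knockout and 56.3 CPM in parental cells (0.72). JUN (-0.20) and JUND (-0.24) fell, and FOS (0.40) and FOSB (0.82) were not called. The JUN call was lost without knockout replicate 3 or parental replicates 1 or 3 (edgeR adjusted p 0.0601, 0.0607 and 0.142), and FOSB passed without knockout replicate 1 (1.02, 0.0344). FOSB reached the level of the filter in all 3 knockout libraries but not in all 3 parental ones, so nothing is read from its direction.

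Of 26 matrix substrates of metalloproteases, 23 were tested, 14 were higher and 8 lower, with a median log2 fold change of 0.38. That is 95.7% called, against 41.4% of all tested genes, in a list chosen with earlier results known. COL3A1, among the higher ones, reached the level of the filter in knockout libraries only. The basement membrane genes NID2 (2.76) and LAMA3 (1.44) and the collagen COL6A1 (0.71) rose, while the proteoglycan VCAN (-6.66) and TNC (-2.49) fell. Of the type IV collagen chains that MMP2 cuts, COL4A1 rose (0.38, edgeR adjusted p = 2.35e-07), COL4A5 fell (-0.26) and COL4A2 was not called (0.091, 0.0791). COL1A1 stood at 65.3 CPM in knockout and 47.7 CPM in parental cells (0.45), and FN1, on chromosome 2, rose by 1.01. The choice to name COL4A1, COL4A2, COL4A5, COL1A1 and FN1 followed a look at their values, and COL4A2 passed without parental replicate 1 (0.12, edgeR adjusted p = 0.0435).

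MMP2 is known to be abundant in fibroblasts, and the markers of that cell type were read beside it. The 9 fibroblast markers summed to 80.4 to 86.0 CPM in knockout and 56.3 to 61.1 CPM in parental libraries, with COL1A1 and THY1 making up most of the sum. Of the 9, 3 were tested and all 3 were higher, against 21.3% of all tested genes. PDGFRA, 1 of the 3, reached the level of the filter in all 3 knockout libraries but not in all 3 parental ones. Nothing is read from the direction of the 3. PDGFRA had 24, 22 and 18 counts in knockout and 6, 13 and 9 counts in parental libraries. PDGFRB, below the filter, had 10, 27 and 25 counts in knockout and 7, 4 and 2 counts in parental libraries. DCN and FAP were at 0 counts in all 6 libraries and POSTN had 1 count in all. COL1A2 had 2 counts or fewer and LUM 7 counts or fewer per library. Leukocyte and macrophage markers summed to 3.95 to 5.25 CPM in knockout and 5.08 to 5.81 CPM in parental libraries, most of it CD14. The 6 endothelial markers summed to 0.0322 to 0.151 CPM in knockout and 0.0583 to 0.132 CPM in parental libraries, with PECAM1 at 0. The part of other cell types in the change of MMP2 was not tested.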

How the data were processed

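RNA was extracted with TRIzol and stranded mRNA libraries were made, per the labels' protocols. Reads were trimmed with cutadapt 2.8, aligned to hg38 with HISAT2 2.1.0, handled with SAMtools 1.10 and assigned to genes with featureCounts 2.0.0, as the tools are listed per the submitters' processing notes. Annotation release, strand setting and the handling of multi-mapping reads: not given in the sources used here. Values of overlapping genes are therefore uncertain. The authors deposited 1 raw count per gene and library, with no normalization, and a gene length of unstated definition (another quantity of the deposited table, in bases).

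Groups and replicate numbers came from the sample titles. No pair of libraries in a group agreed within sampling noise (chi-square per degree of freedom 2.46 to 9.14, using genes whose summed count was 25 or more). The test was edgeR 4.0.16 in R 4.3.3, with filterByExpr (at least 10 counts at the median library size, 0.301 CPM, in 3 libraries), TMM scaling and the quasi-likelihood F-test with group as the only term. CPM used the TMM-scaled library sizes. The SE is the absolute log2 fold change divided by the root of F. The edgeR step was tested on simulated data. Positions and exons came from GENCODE release 29, joined by gene identifier for 58437 genes. Alternatives comprised upper-quartile and RLE scaling, omission of the filter, 1 CPM in 3 libraries, a replicate block, DESeq2 1.42.0, limma-voom (limma 3.58.1), a test against a 1.5-fold change, each library left out, and other gene lengths. The genes, the lists and the rule for named genes (RAVER1, the 10 genes, the detected rest of the family, up to 5 genes per list by adjusted p, neighbours past 2-fold, genes with overlapping exons) were chosen with earlier results of these data known. Intervals and floors cover counting error only. Of the genes that the rule for named genes selects, 1 is not reported here.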

Additional observations from a re-analysis of the deposited data

How the results depend on the processing

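MMP2, MMP7, MMP24 and TIMP2 kept their direction and their call in all 14 alternatives. Their log2 fold changes ranged from 4.13 to 4.20, from -3.49 to -3.36, from -0.82 to -0.74 and from 0.90 to 0.97, with adjusted p of 0.00142 or less. MMP15 and TIMP1 were called in none of 14 alternatives and MMP14 in none of the 13 that tested it. Without the filter TIMP3 was called as well, so 3 members were higher. Against a 1.5-fold change, 580 genes were higher and 667 lower, in place of 3554 and 3336. That test ended 16 calls of named genes. MMP24OS (adjusted p 0.0827) and SPOCK1 (0.0572) were lost, as were PCSK6, MARCKS, SH3PXD2B, RAB7A, EXOC4, ETS2, JUN, JUND, FURIN, PLAU, CD44, COL4A1, COL4A5 and COL1A1, each with an adjusted p of 1. It left 4 higher and 0 lower among activators and partners, 0 and 1 among invadopodia genes, 6 and 0 among transcription factors, and 5 and 2 among matrix substrates. For invadopodia genes the counts were 3 and 2 without the filter and 3 and 3 with limma-voom. Upper-quartile scaling gave 3109 higher and 3872 lower genes, and the 4 calls stayed the same.

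Correlations of same-numbered deviations were 0.28, 0.14 and 0.069, against -0.22 to 0.11 for different numbers. Knockout replicate 3 correlated best with parental replicate 2, so the replicate numbers were not shown to pair all the libraries. With the replicate block, 4304 genes were higher and 4105 lower, no member's call changed, the invadopodia genes had 6 higher and 5 lower, BSG and COL4A2 passed (adjusted p 0.0123 and 0.00138) and FN1 did not (0.0501).

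Gene length moved the ratios. With exon union lengths the ratio of MMP2 to TIMP2 was 0.057 in knockout cells, and that of summed metalloproteases to TIMPs 0.521 in parental cells. With the longest transcript, MMP2 to TIMP2 was 0.0487 in knockout and 0.00519 in parental cells, MMP14 to TIMP2 0.0038 in parental cells, and the sums 0.164 in knockout and 0.458 in parental cells. Depth limits MMP1, MMP14, MMP16 and TIMP3, with at most 37 counts per library.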
